A study of Arabidopsis thaliana with 12 samples.

Results

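Leaf RNA of salt-treated Arabidopsis thaliana was compared between Ws and Col, which are the usual short names of the natural accessions Wassilewskija and Columbia. The comparison rests on 4 of the 12 arrays of the study, 2 labelled Ws_leaf_100mM NaCl and 2 labelled Col_leaf_100mM NaCl, and it covers all 22746 probe sets that are not array controls. The third genotype, Col(gl), is not part of it. Both genotypes grew on soil with a nutrient solution. The salted plants received NaCl in rising steps up to 100 mM, and leaves were taken 20 days after sowing, after 6 days of salt. Leaves of the same genotypes kept at 0 mM NaCl gave 4 further arrays, which serve to ask whether a genotype difference seen with salt was also there without it. All 12 arrays enter the estimate of spread behind every test. The study calls the arrays of a group biological replicates. How many plants went into a sample is not stated, and each genotype is a single accession. Values are log2 RMA signals, and a difference of 1 on this scale is 2-fold. Differences are given as Ws minus Col with the standard error (SE) of a limma fit to all 12 arrays, n = 2 arrays per group. A probe set was called at a Benjamini-Hochberg adjusted p under 0.05 over all probe sets.

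As background, salt reaches a leaf first as a shortage of water and later as an excess of sodium. Leaf cells answer with abscisic acid signalling, with hydrophilic protective proteins such as dehydrins, with removal of reactive oxygen, and with slower growth. Early in such a response cells raise calcium sensors and zinc-finger, AP2/ERF and WRKY transcription factors, many of which also act in wounding and in defence through jasmonate and salicylic acid. Accessions such as Ws and Col also differ by inherited variants, so a genotype difference can be present with or without stress. An array probe designed on the Col sequence can also give less signal where Ws carries another base, and the match of the probes to Ws sequence was not tested.

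Replicate 1 of both salted groups stood apart from replicate 2. The median signal of plastid-encoded probe sets was 8.73 and 11.2 in replicates 1 and 2 of salted Ws, and 9.48 and 11.4 in those of salted Col. The actin control probes near the 3' end exceeded those near the 5' end by 3.70 and 2.56 in Ws and by 3.68 and 2.6 in Col. Both genotypes show this split in the same direction, so each salted group holds 1 array of either kind. The pooled SD between replicates was 0.353 in salted Ws and 0.297 in salted Col, against 0.144 and 0.149 in the unsalted groups. Array medians lay between 6.15 and 6.38. A signal at or under 4.31, the lower quartile over all arrays, may be background, and a fold against a group mean that low is given as "at least". Rubisco activase, RCA (AT2G39730), the only leaf mesophyll marker with a named probe set, read 13.92 and 14.05 in salted Ws and 13.76 and 13.75 in salted Col.

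Salted Ws and Col differed at 2896 probe sets, 12.7% of those tested. Of these, 1513 were higher in Ws (6.65%) and 1383 were lower (6.08%). The median over all probe sets was 0.08. These are bulk leaf samples, so fewer cells of a type and less RNA per cell cannot be told apart. The larger differences were mostly lower signals in Ws. At 2-fold or more, 336 probe sets were higher in Ws (1.48%) and 699 were lower (3.07%). At 3 log2 units or more, 8 were higher and 60 lower, and at 5 or more, 1 was higher and 6 lower. The 2 Ws and 2 Col arrays did not overlap at 10602 probe sets, 46.6% of all. All 2896 calls had the same sign within replicate 1 and within replicate 2. The calls were made on these same arrays, and replicate numbers carry no stated pairing. Deviations of same-numbered salted Ws and Col arrays also correlated at 0.697, so this agreement is a description and no separate replication. Without both replicate 1 arrays 3630 probe sets were called, 2245 of them among the 2896. The count leans on the other groups, whose replicates lay closer together, for its estimate of spread. With only the 4 salted arrays in the fit, which leaves 2 arrays per group and no others, 282 probe sets were called, 71 higher and 211 lower in Ws. A replicate block on the same 4 arrays gave 2420 calls, 1115 higher and 1305 lower, with 2025 of them among the 2896. Calls lay on all nuclear chromosomes, from 9.55% of the probe sets with 1 listed gene on chromosome 2 to 12.9% on chromosome 1.

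The few measured genes that act early in stress signalling were lower in salted Ws. In a list of rapid stress regulators, 41 genes had a known locus and 5 were measured. All 5 were called lower, with a median difference of -2.41. Over all probe sets 6.08% were called lower with salt and 7.32% without it. Without salt the same list had 2 members called lower and a median of -0.66. With both replicate 1 arrays left out all 5 were still called, with a median of -1.98. The list had been drawn up with earlier results of these data known, so its direction is a description.

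STZ (AT1G27730), a zinc-finger repressor induced by drought, salt and cold, read 7.37 and 8.47 in salted Ws and 10.45 and 11.08 in salted Col. The groups did not overlap, and the difference was -2.85 (SE 0.33, adjusted p = 0.000426). Without salt it was already lower in Ws, by a difference of -1.32 (adjusted p = 0.0246). ORA47 (AT1G74930), an AP2/ERF activator of jasmonate synthesis, read 6.50 and 8.40 against 9.80 and 10.38, a difference of -2.64 (SE 0.47, adjusted p = 0.00527). The Ws arrays of ORA47 lay far apart, yet both were below both Col arrays. CML38 (AT1G76650), a calmodulin-like calcium sensor, read 7.08 and 6.48 against 9.26 and 9.12, a difference of -2.41 (SE 0.18, adjusted p = 2.34e-05). Its relative CML37 (AT5G42380) differed by -1.30 (SE 0.18, adjusted p = 0.0014). WRKY22 (AT4G01250), a transcription factor of the immune response, read 5.35 and 5.86 against 7.46 and 7.43, a difference of -1.84 (SE 0.16, adjusted p = 7.89e-05). WRKY22 was not called without salt, where Ws read 4.69 and 4.92 and Col 4.37 and 4.38, and its genotype difference changed between salt levels by -2.27 (adjusted p = 0.00111).

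Gene families were taken by gene symbol. Called members of the PUB, calmodulin-like, WRKY and bZIP families so taken were lower in salted Ws, against 6.08% called lower over all probe sets. HYH (AT3G17609), a bZIP gene with another symbol, was called higher in salted Ws by 1.16, a call that did not hold in every fit. PUB23 (AT2G35930), a U-box ubiquitin ligase that dampens immune and drought signalling, read 5.79 and 5.88 in salted Ws and 7.78 and 8.37 in salted Col. Its difference was -2.24 (SE 0.17, adjusted p = 2.96e-05), and PUB24 (AT3G11840) differed by -1.12 (adjusted p = 0.000297). These 2 were the called members among 9 measured PUB genes, whose median was -0.31. Among 7 calmodulin-like genes 3 were called, all lower, the third being CML23 (AT1G66400) at -1.46. CML37, CML38 and WRKY22 were already described with the rapid stress regulators, so these family counts partly repeat that list. Among 6 WRKY genes 2 were called lower, and among 14 bZIP genes also 2, BZIP60 (AT1G42990), a regulator of the unfolded protein response, at -1.04, and BZIP53 (AT3G62420) at -0.89. Medians of the 3 families were -0.18, -0.29 and 0.01, and their signs are not settled. The first became 0.07 without replicate 2 of Ws, the second 0.17 without replicate 2 of Col, and the third -0.04 without replicate 1 of Ws. AR781 (AT2G26530) read 8.04 and 8.11 against 10.12 and 10.15, a difference of -2.06 (SE 0.11, adjusted p = 2.99e-06).

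**Figure D1:**
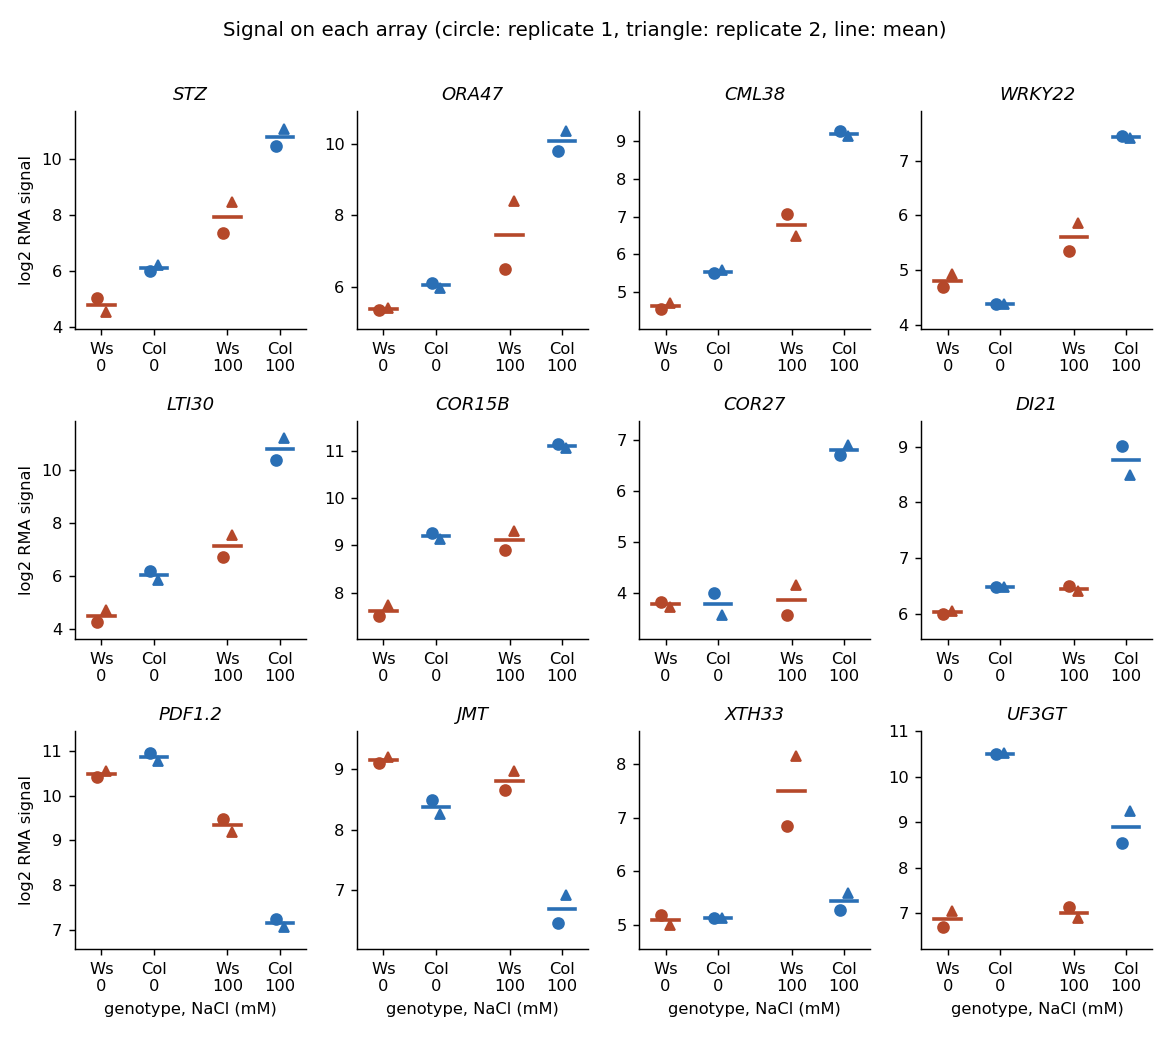
Log2 RMA signal (vertical axis of each panel) of 12 genes on the arrays of Ws (red) and Col (blue) at 0 and 100 mM NaCl, with circles for replicate 1, triangles for replicate 2 and a line at the group mean. The panels of STZ, LTI30 and COR27 show salted Col far above salted Ws, while PDF1.2, JMT and XTH33 show the opposite order.

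Some cold and dehydration genes were far lower in salted Ws, while others of the same list were not called. LTI30 (AT3G50970), a dehydrin, read 6.71 and 7.55 in salted Ws and 10.34 and 11.18 in salted Col. The difference was -3.63 (SE 0.32, adjusted p = 7.56e-05), a 12.4-fold lower signal. Without salt LTI30 differed by -1.55 (adjusted p = 0.0106), and the change in its difference with salt was -2.09 (adjusted p = 0.0331). COR15B (AT2G42530), a protein that protects chloroplast membranes, read 8.91 and 9.31 against 11.15 and 11.05, a difference of -1.99 (SE 0.14, adjusted p = 2.1e-05). COR15B was lower in Ws without salt by nearly as much, with a difference of -1.59 (adjusted p = 9.68e-05). The other 4 measured members were not called. COR47 (AT1G20440), another dehydrin, differed by 0.21 (SE 0.28, adjusted p = 0.732), COR15A (AT2G42540) by -0.44 (SE 0.18, adjusted p = 0.162), LEA4-5 (AT5G06760) by 0.07 (SE 0.36, adjusted p = 0.934) and XERICO (AT2G04240) by 0.25 (SE 0.16, adjusted p = 0.385). The list median was -0.18 with salt, though 0.16 without replicate 1 of Ws and 0.02 without replicate 2 of Col. Without salt it was -0.99, and 4 of the 6 were called lower in Ws, against 7.32% over all probe sets.

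COR27 (AT5G42900), a cold-induced gene under clock control, read 3.58 and 4.15 in salted Ws and 6.71 and 6.90 in salted Col, at least 7.68-fold lower in Ws (difference -2.94, SE 0.20, adjusted p = 1.3e-05). Without salt both genotypes were at or near the lower quartile. GI (AT1G22770), a clock component that promotes flowering, differed by -1.40 (SE 0.17, adjusted p = 0.000468), and by -1.05 without salt (adjusted p = 0.00249). DI21 (AT4G15910), named for its induction by drought, read 6.50 and 6.40 against 9.02 and 8.50, a difference of -2.31 (SE 0.15, adjusted p = 1.12e-05). The unsalted Ws arrays read 5.99 and 6.05 and those of Col 6.49 and 6.48, and the change in the genotype difference with salt was -1.85 (adjusted p = 0.00212).

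Jasmonate and ethylene genes went both ways. Of 10 measured members 3 were called higher and 2 lower in salted Ws, with a median of 0.07. Over all probe sets 6.65% were called higher and 6.08% lower. PDF1.2 (AT5G44420), an antifungal defensin that serves as a marker of the joint jasmonate and ethylene response, read 9.48 and 9.19 in salted Ws and 7.23 and 7.05 in salted Col. The difference was 2.2 (SE 0.15, adjusted p = 1.82e-05), a 4.58-fold higher signal. Without salt Ws read 10.43 and 10.56 and Col 10.96 and 10.77, which was not called (adjusted p = 0.142), so the higher value in Ws appeared where both genotypes read lower and Col read lowest. Its near-identical copy PDF1.2b (AT2G26020) differed by 1.41 (SE 0.15, adjusted p = 0.000207). The probes may not tell the PDF1.2 copies apart, so the pair counts as one observation. JMT (AT1G19640), the enzyme that makes methyl jasmonate, read 8.66 and 8.97 against 6.45 and 6.91, a difference of 2.13 (SE 0.18, adjusted p = 5.45e-05). OPCL1 (AT1G20510), a ligase in jasmonate synthesis, was lower in Ws by a difference of -1.13 (SE 0.15, adjusted p = 0.0011), as was ORA47.

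The called genes of this paragraph, tied to salicylic acid or to defence, were lower in salted Ws, with 1 exception. The defensin genes PDF1.2 and PDF1.2b, described above, were higher. GRX480 (AT1G28480), a glutaredoxin induced by salicylic acid that represses PDF1.2, read 7.39 and 6.62 in salted Ws and 9.42 and 8.40 in salted Col, a difference of -1.91 (SE 0.33, adjusted p = 0.00455). WRKY53 (AT4G23810), a regulator of senescence and defence, read 6.67 and 7.26 against 8.16 and 8.64, a difference of -1.44 (SE 0.20, adjusted p = 0.00146). SAG101 (AT5G14930), a partner in immune receptor signalling, differed by -0.22 (SE 0.15, adjusted p = 0.415). Of 43 listed salicylic acid genes with a known locus these 3 were measured, and 2 were called lower, against 6.08% over all probe sets. CSA1 (AT5G17880), an intracellular immune receptor, read 4.24 and 4.12 against 6.57 and 6.84, at least 5.76-fold lower in Ws, and it was also lower without salt (difference -3.19, adjusted p = 1.02e-06). Only 2 listed disease resistance receptors were measured, and the other differed by 0.04 and was not called. LCR69 (AT2G02100), a defensin-like peptide, differed by -1.94 (SE 0.34, adjusted p = 0.00481) and had no called difference without salt (-0.13, adjusted p = 0.85). UGT76B1 (AT3G11340), a glucosyltransferase that conjugates isoleucic and salicylic acid, was higher in Ws, with 5.61 and 7.40 against 4.50 and 4.31 (difference 2.1, SE 0.44, adjusted p = 0.0125). The Ws arrays of UGT76B1 were far apart, and its call ended without replicate 2 of Col (adjusted p = 0.053).

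Called anthocyanin genes were lower in salted Ws. UF3GT (AT5G54060), which adds a sugar to anthocyanins, read 7.13 and 6.89 in salted Ws and 8.55 and 9.25 in salted Col, a difference of -1.89 (SE 0.21, adjusted p = 0.000295). Without salt the difference was -3.64, and its change with salt was 1.75 (adjusted p = 0.0111). AT5MAT (AT3G29590), an anthocyanin malonyltransferase, read 4.70 and 4.46 against 5.33 and 6.60, a difference of -1.38 (SE 0.35, adjusted p = 0.0308), a call that ended without replicate 2 of Col (adjusted p = 0.10) or of Ws (0.093). DFR (AT5G42800), the reductase at the entry to anthocyanin synthesis, read 9.74 and 7.08 in salted Ws and 10.47 and 10.21 in salted Col and was not called (difference -1.93, SE 0.62, adjusted p = 0.0774), and the replicates of Ws differed more than the genotypes. Of 9 measured flavonoid genes 2 were called lower and 0 higher with salt, with a median of -0.63. Over all probe sets 6.08% were called lower with salt and 7.32% without it. Without salt 5 of the 9 were called lower, with a median of -1.73. Without both replicate 1 arrays 4 were called lower with salt, with a median of -0.58. Of 7 glucosinolate genes 1 was called, the transporter GTR1 (AT3G47960), which read 9.42 and 9.80 against 10.63 and 11.06, a difference of -1.24 (SE 0.17, adjusted p = 0.00127).

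The measured enzymes against reactive oxygen were slightly higher in salted Ws. Of 39 listed genes with a known locus 5 were measured. Of these 4 were called higher, against 6.65% over all probe sets, and the list median was 0.51. Without salt 1 was called higher, against 8.48% over all probe sets, and the median was 0.22. VTC4 (AT3G02870), a phosphatase of ascorbate synthesis, read 10.43 and 10.70 in salted Ws and 9.51 and 9.78 in salted Col, a difference of 0.92 (SE 0.13, adjusted p = 0.00181). GR (AT3G54660), the plastid glutathione reductase, read 11.03 and 11.26 against 10.29 and 10.57, a difference of 0.71 (SE 0.12, adjusted p = 0.00418). CCS (AT1G12520), which loads copper into superoxide dismutase, differed by 0.51 and SAPX (AT4G08390), a stromal ascorbate peroxidase, by 0.41. The calls of CCS and SAPX ended when 1 array was left out, at adjusted p = 0.098 and 0.20 without replicate 1 of Col and 0.15 and 0.17 without replicate 2 of Ws, and that of CCS also without replicate 2 of Col (0.10). TAPX (AT1G77490), the thylakoid ascorbate peroxidase, differed by 0.21 (SE 0.09, adjusted p = 0.206). With both replicate 1 arrays left out 3 of the 5 were called, with a median of 0.67.

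Of 11 photosynthesis genes of the nucleus 2 were called, against 12.7% over all probe sets. LHCB4.3 (AT2G40100), an antenna protein, was called at 0.54 and PRK (AT1G32060), phosphoribulokinase of the Calvin cycle, at 0.33, and the list median was 0.13. The call of PRK ended on leaving out any 1 of the 4 salted arrays (adjusted p = 0.10 to 0.15), and that of LHCB4.3 without replicate 2 of Col (0.068) or of Ws (0.051). CYTC6A (AT5G45040), a thylakoid cytochrome, read 8.93 and 9.17 in salted Ws and 7.73 and 7.68 in salted Col, a difference of 1.35 (SE 0.12, adjusted p = 6.23e-05) that was also called without salt. Among 69 plastid-encoded probe sets 1 was called higher and 3 lower, against 6.65% and 6.08% over all probe sets. Their median was -0.19, and it was -0.14 between the replicate 1 arrays and -0.25 between the replicate 2 arrays. The sign of that median turned when single arrays were left out, to 0.43 without replicate 1 of Ws and 0.59 without replicate 2 of Col. The 4 were rps4, a ribosomal protein gene (1.59), psbI (-1.10) and psbK (-1.22) of photosystem II, and the ribosomal protein gene rpl16 (-1.19). Of these only psbI kept its call whichever salted array was left out. That of rps4 ended without either replicate of Ws (adjusted p = 0.065 and 0.077), and those of psbK and rpl16 ended without replicate 1 of Ws (0.091 and 0.11) and without replicate 2 of Col (0.14 and 0.085). With both replicate 1 arrays left out 2 were called higher and 20 lower.

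Wall genes went in both directions. XTH33 (AT1G10550), a xyloglucan-modifying enzyme, read 6.84 and 8.16 in salted Ws and 5.29 and 5.59 in salted Col, a difference of 2.06 (SE 0.33, adjusted p = 0.00281). Without salt XTH33 read 5.19 and 5.00 in Ws and 5.13 and 5.12 in Col, and the genotype difference changed by 2.09 (adjusted p = 0.0351). XTH32 (AT2G36870) was higher by 0.84 (SE 0.13, adjusted p = 0.00218), and these were the called members among 9 XTH genes. CSLA01 (AT4G16590), a glucomannan synthase of the cellulose synthase-like family, read 10.24 and 11.20 against 8.62 and 9.50, a difference of 1.66 (SE 0.31, adjusted p = 0.00744). CSLC04 (AT3G28180), a synthase of the xyloglucan backbone, went the other way with 7.48 and 8.63 against 10.12 and 10.02, a difference of -2.02 (SE 0.29, adjusted p = 0.00144). Among expansins, which loosen walls, of 10 EXPA genes 0 passed. Of the others EXPB1 (AT2G20750) was higher by 1.23 and EXPB3 (AT4G28250) lower by a difference of -0.90. The calls of both expansins ended without replicate 1 of Col (adjusted p = 0.14 and 0.12) and without replicate 2 of Ws (0.095 and 0.078). Of the 16 measured genes listed for wall expansion 3 were called higher and 2 lower, against 6.65% and 6.08% over all probe sets. Their median was 0.05, and 0.07 without both replicate 1 arrays.

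HTB11 (AT3G46030), a histone H2B gene, read 4.92 and 5.07 in salted Ws and 10.08 and 9.31 in salted Col, a difference of -4.70 (SE 0.86, adjusted p = 0.00605), 26-fold lower. HTB11, HTB2 and 3xHMG-box1 were named for the size of their difference and stand for no list. The unsalted Ws arrays of HTB11 read 4.23 and 7.84, so the level of this gene in Ws was not stable between replicates. HTB2 (AT5G22880), another H2B gene, read 7.92 and 7.09 against 8.75 and 8.78, a difference of -1.26 (SE 0.32, adjusted p = 0.0319). H2B genes are close copies, so the probe sets may share signal, and the call of HTB2 ended without replicate 1 of Col (adjusted p = 0.096), replicate 2 of Col (0.097) or replicate 2 of Ws (0.13). 3xHMG-box1 (AT4G11080), a chromosome-binding protein of dividing cells, read 5.36 and 4.01 against 6.50 and 5.96 (difference -1.54, SE 0.36, adjusted p = 0.0197), and its call ended without replicate 1 of Col (0.11). TUB5 (AT1G20010), a beta-tubulin, was the called member among 5, against 6.08% called lower over all probe sets. It read 9.45 and 9.58 against 10.47 and 10.34, a difference of -0.89 (SE 0.11, adjusted p = 0.000676).

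Several metabolic enzymes differed both with and without salt, and others were called only with it. ACLA-2 (AT1G60810), a subunit of the ATP-citrate lyase that makes cytosolic acetyl-CoA, read 10.65 and 10.39 in salted Ws and 8.79 and 8.11 in salted Col. The difference was 2.07 (SE 0.21, adjusted p = 0.000192), and it was 3.05 without salt (adjusted p = 1.92e-05). PDC2 (AT5G54960), a pyruvate decarboxylase of fermentation, read 7.64 and 8.60 against 10.09 and 10.50, a difference of -2.18 (SE 0.25, adjusted p = 0.00044), close to its unsalted difference of -2.41. ALDH6B2 (AT2G14170), methylmalonate semialdehyde dehydrogenase, likewise differed by -1.69 with salt and -1.93 without it. APS4 (AT5G43780), an ATP sulfurylase of sulfate assimilation, differed by -1.07 (SE 0.11, adjusted p = 0.000225) with salt and by -1.90 without it, and that change passed the test (0.83, adjusted p = 0.0199). PWD (AT4G24450) was higher in Ws by 1.15 (SE 0.24, adjusted p = 0.0127). Its call ended without replicate 1 of Col, where the difference was 0.99. ARD4 (AT5G43850), an acireductone dioxygenase of methionine salvage, was higher by 1.15 (SE 0.24, adjusted p = 0.0114). The call of ARD4 ended without replicate 2 of Ws, where the difference was 0.90. PWD and ARD4 were not called without salt, where PWD differed by 0.77 (adjusted p = 0.0597) and ARD4 by -0.24 (adjusted p = 0.558). The change of ARD4 between salt levels passed the interaction test (adjusted p = 0.0491), though not in every fit. QQS (AT3G30720), an orphan gene that affects starch content, read 3.97 and 4.38 against 5.91 and 6.48, at least 4.05-fold lower in Ws.

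Enzyme families of secondary metabolism had calls in both directions, against 12.7% called over all probe sets. Of 24 cytochrome P450 genes 3 were called higher and 2 lower, with a median of 0.06. The largest was CYP71B24 (AT3G26230), at 4.27 and 3.95 in salted Ws and 6.36 and 6.44 in salted Col, at least 4.89-fold lower and also lower without salt (difference -2.92). Of 47 UGT genes 2 were higher and 4 lower, UGT76E12 (AT3G46660) by a difference of -1.86 (SE 0.18, adjusted p = 0.000139). Of 13 GST genes 1 was higher and 1 lower, and of 20 beta-glucosidase genes with a BGLU symbol 2 were lower. These were BGLU44 and BGLU47, whose calls ended with only the 8 arrays of Ws and Col (adjusted p = 0.11 and 0.069). Both calls also ended without replicate 2 of Ws (differences of -0.55 and -0.66) or replicate 1 of Col (-0.83 and -0.54). PYK10, a beta-glucosidase with another symbol, was also called lower and is described below.

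Of 4 measured iron and metal genes 2 were called lower in salted Ws and 0 higher, against 6.08% called lower over all probe sets. The others were MT1C (AT1G07610), a metallothionein, with a difference of 0.26 (SE 0.12, adjusted p = 0.199), and ZIP9 (AT4G33020), a metal transporter, with 0.18 (SE 0.10, adjusted p = 0.339). PYE (AT3G47640), a bHLH factor that restrains iron uptake genes, read 6.37 and 6.27 in salted Ws and 7.48 and 6.92 in salted Col, a difference of -0.88 (SE 0.20, adjusted p = 0.02). Without salt PYE was not called, with a difference of 0.51, and the change with salt was -1.39 (adjusted p = 0.028). BHLH101 (AT5G04150), a partner in the iron deficiency response, read 3.81 and 3.82 against 4.94 and 4.16, near the lower quartile in all but 1 array. The call of PYE ended without replicate 1 of Col (adjusted p = 0.11) or replicate 2 of Ws (0.063), and that of BHLH101 without replicate 1 of Col (0.17), replicate 1 of Ws (0.092) or replicate 2 of Ws (0.10). Without both replicate 1 arrays neither passed (0.084 and 0.19), and the list median moved from -0.28 to -0.07.

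TRY (AT5G53200), an inhibitor of trichome fate, was higher by 0.98 (SE 0.16, adjusted p = 0.00389), 1 of 4 trichome genes. Over all probe sets 6.65% were called higher. Hsp70-2 (AT5G02490) was the called member among 3 chaperone genes, at 0.61 (SE 0.12, adjusted p = 0.0104), and Hop3 (AT4G12400), a co-chaperone of Hsp70 and Hsp90, read 4.85 and 6.49 in salted Ws against 3.92 and 4.01, at least 3.26-fold higher. The call of Hsp70-2 ended without replicate 2 of Col (adjusted p = 0.055) or of Ws (0.052), and that of Hop3 without replicate 1 of Col (0.078) or replicate 2 of Col (0.060). The 3 sodium and potassium transport genes, 6 flowering genes, 6 auxin genes and 4 reference genes had 0 calls, with medians of 0.15, 0.26, 0.18 and 0.03. Many well-known salt genes have no probe set with a listed name here and were not analysed.

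**Figure D2:**
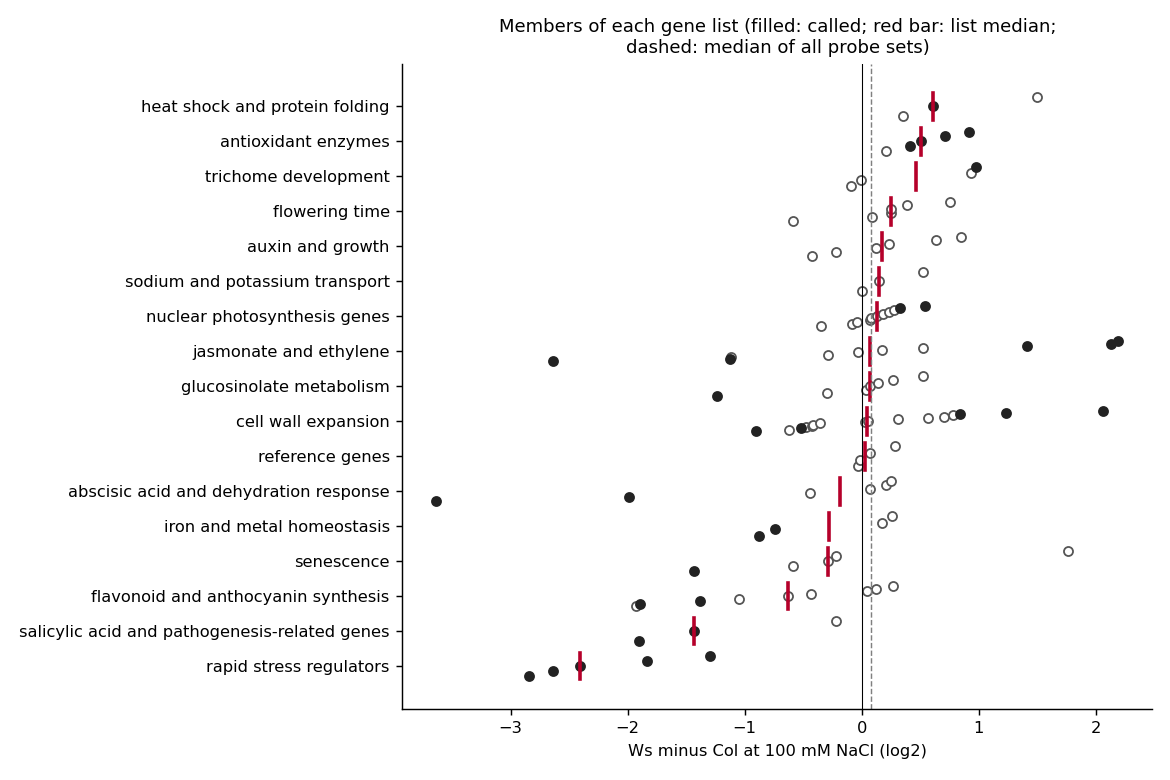
Ws minus Col at 100 mM NaCl (horizontal axis, log2) for each measured member of the gene lists with at least 3 members, filled where called, with a red bar at the list median and a dashed line at the median of all probe sets, 0.08. The rapid stress regulators lie lowest, with a median of -2.41, and all 5 of their points are filled.

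PYK10 (AT3G09260) and NAI2 (AT3G15950) belong to the ER body, a store of beta-glucosidase known mainly from seedlings and roots. PYK10 read 6.73 and 3.61 in salted Ws and 9.99 and 7.73 in salted Col, a difference of -3.69 (SE 0.89, adjusted p = 0.0245). NAI2 read 5.05 and 3.96 against 8.50 and 6.20, a difference of -2.84 (SE 0.60, adjusted p = 0.0126). Both were higher in replicate 1 than in replicate 2 of each genotype, and all 4 unsalted Ws and Col arrays of both genes were under the lower quartile. PYK10 was also on the list of root markers. Among other measured root markers, the root-hair expansins EXPA7 and EXPA18 read between 4.16 and 4.57 on the salted arrays, at or near background, and the part of root material in the PYK10 result was not tested. The call of PYK10 ended without replicate 1 of Col (adjusted p = 0.13) or replicate 2 of Ws (0.066), and that of NAI2 without replicate 2 of Ws (0.055).

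The genotype difference was then set beside the same difference without salt, which uses other arrays but shares the estimate of spread. At 0 mM NaCl 3594 probe sets were called, 15.8% of those tested, 1929 higher in Ws (8.48%) and 1665 lower (7.32%). Called at both salt levels in the same direction were 1230 probe sets, 42.5% of the calls with salt and 34.2% of those without. They split into 547 higher and 683 lower in Ws. Opposite directions were called for 70, and 1596 were called only with salt. Across all probe sets the differences at the 2 salt levels had a Pearson correlation of 0.529, a description over 22746 probe sets that are not independent.

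The largest differences were mostly there without salt. Of the 20 named probe sets highest in salted Ws against Col, 16 were also called higher without salt, and of the 20 lowest, 16 were also called lower. ECS1 (AT1G31580), a wall protein, read 6.86 and 5.85 in salted Ws and 13.46 and 13.39 in salted Col, 135-fold lower (difference -7.07, SE 0.36, adjusted p = 2.87e-06). Its difference without salt was -7.57. ZW9 (AT1G58270) read 5.14 and 6.11 against 9.61 and 9.35 (difference -3.86, SE 0.25, adjusted p = 1.25e-05) and differed by -4.87 without salt. HTB11, PYK10, LTI30 and PDF1.2, described above, are the other probe sets of these ranks with a symbol, and the rest carry only a locus in the annotation used here. AT1G66100 read 4.24 and 4.25 in salted Ws and 11.05 and 10.61 in salted Col, at least 95.9-fold lower. AT3G22240 read 6.58 on both Ws arrays and 13.00 and 12.71 on those of Col, 77.3-fold lower, and AT3G47250 was at least 61.9-fold lower. In 8 of the 20 lowest, Ws was at or under the lower quartile at both salt levels, and for 1 of the 20 highest the same held for Col. In the other direction AT2G15560 read 10.76 and 10.23 in salted Ws and 5.16 and 5.19 in salted Col, 40-fold higher (difference 5.32, SE 0.17, adjusted p = 1.9e-07). AT2G35820 followed with 8.85 and 8.53 against 4.08 and 4.79, 19.1-fold higher, and AT1G50290 with 8.61 and 8.91 against 4.81 and 4.73, 15.9-fold higher. Salted Col(gl) lay nearer to Col than to Ws in 20 of the 20 highest and in 17 of the 20 lowest.

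**Figure D3:**
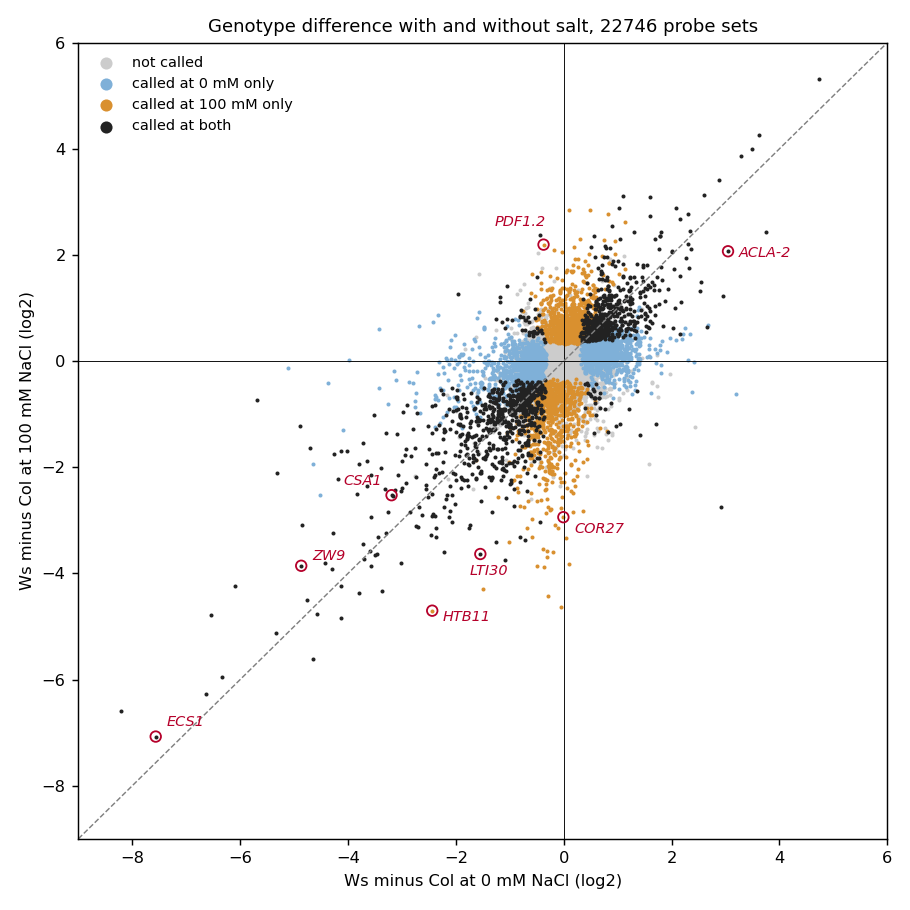
Ws minus Col at 100 mM NaCl (vertical axis, log2) against Ws minus Col at 0 mM NaCl (horizontal axis, log2) for 22746 probe sets, coloured by where they were called, with 8 genes ringed and the line of equal differences dashed. ECS1 and ACLA-2 were called at both salt levels, while COR27 lies at a difference near 0 without salt and -2.94 with it.

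Whether the genotype difference depended on salt was tested directly as an interaction. This was called for 1061 probe sets, 4.66% of those tested, 575 with a more positive difference under salt (2.53%) and 486 with a more negative one (2.14%). Among the 2896 calls at 100 mM, 608 also passed this test, or 21.0%. Of these 608, 261 were higher and 347 lower in salted Ws. Among the 261 the mean of Col moved further between salt levels than that of Ws in 202, downwards in 192 of them. Among the 347 Col moved further in 309, upwards in 273. Thus, in the probe sets that passed both tests, Col mostly had the larger change in either direction, and Ws stayed nearer to its unsalted level. This split follows in part from choosing probe sets by both tests and is a description. Without both replicate 1 arrays the interaction was called for 2525 probe sets, and without replicate 1 of Ws alone for 2169. Of 43 named probe sets called by the interaction 14 lost that call when 1 array was left out. The changes of WRKY22, DI21, COR27 and AT1G07050 passed whichever array was left out. That of LTI30 did not pass without replicate 2 of salted Col (adjusted p = 0.051) or without any 1 of the unsalted arrays (0.074 to 0.13). Those of XTH33, APS4 and PYE failed without replicate 1 of salted Col (0.094, 0.058 and 0.060) or without any 1 of the unsalted arrays (0.061 to 0.13), and that of UF3GT without replicate 1 of unsalted Ws (0.056) or unsalted Col (0.053).

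AT1G07050 had a called difference only with salt, at 3.87 and 3.96 in salted Ws and 8.05 and 8.64 in salted Col, at least 21.6-fold lower. All 4 unsalted arrays of this gene lay between 3.72 and 4.1, and the change in its difference was -4.14 (SE 0.24, adjusted p = 7.65e-05). AT4G27654 had a similar pattern, at 5.69 and 4.33 against 9.45 and 8.2 with salt and at or under the lower quartile in the mean of both genotypes without it. AT2G40010 read 3.93 and 4.2 in salted Ws and 7.78 and 7.83 in salted Col, at least 13.4-fold lower, with a smaller difference of -1.08 without salt. For genes higher in Ws, AT5G18840 read 7.09 and 8.01 against 4.67 and 4.66, a difference of 2.88 that was 1.03 without salt, and its change did not pass without any 1 of the unsalted arrays (adjusted p = 0.053 to 0.082). AT1G72030 read 10.62 and 10.50 against 8.26 and 8.24 with salt, a difference of 2.31 (SE 0.09, adjusted p = 6.96e-07) that was 1.05 without it, while HAT2 (AT5G47370), a homeodomain factor induced by auxin, differed by 1.3 with salt (SE 0.15, adjusted p = 0.00045) and 0.23 without it (adjusted p = 0.374). The change of HAT2 did not pass without replicate 1 of salted Col (adjusted p = 0.070) or without any 1 of the unsalted arrays (0.071 to 0.10).

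For 12 named probe sets the genotype difference was called at both salt levels with opposite signs. The rule chose them for that reversal, so their values are a description. PDF1.2b read 8.90 and 8.54 in salted Ws and 7.41 and 7.21 in salted Col, while unsalted Ws read 9.85 and 9.55 and unsalted Col 10.76 and 10.74. TUB5 differed by -0.89 with salt and 0.39 without it, and rpl16 by -1.19 and 1.71. AT1G47400 had the widest swing. It read 6.59 and 5.87 in salted Ws and 9.81 and 8.15 in salted Col, against 8.22 and 8.17 in unsalted Ws and 5.46 and 5.10 in unsalted Col. Its level was thus lower with salt in Ws and higher with salt in Col. AT5G05250 did likewise, with 6.30 and 6.37 against 7.85 and 7.59 with salt and 7.35 and 7.49 against 5.88 and 6.12 without it. AT2G41640, with a difference of -1.36 with salt and 0.57 without it, was higher with salt in both genotypes, from 5.79 and 5.44 to 7.21 and 7.53 in Ws and from 4.98 and 5.12 to 8.64 and 8.83 in Col. AT1G11670 differed by -0.80 and 0.87, and its call with salt ended without replicate 2 of Col (adjusted p = 0.055) or of Ws (0.062). The remaining 5, AT3G45210, AT1G09230, AT2G38180, AT2G16750 and AT3G62820, were higher in salted Ws by 0.81 to 1.17 and lower in unsalted Ws, with differences between -0.80 and -0.46.

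**Figure D4:**
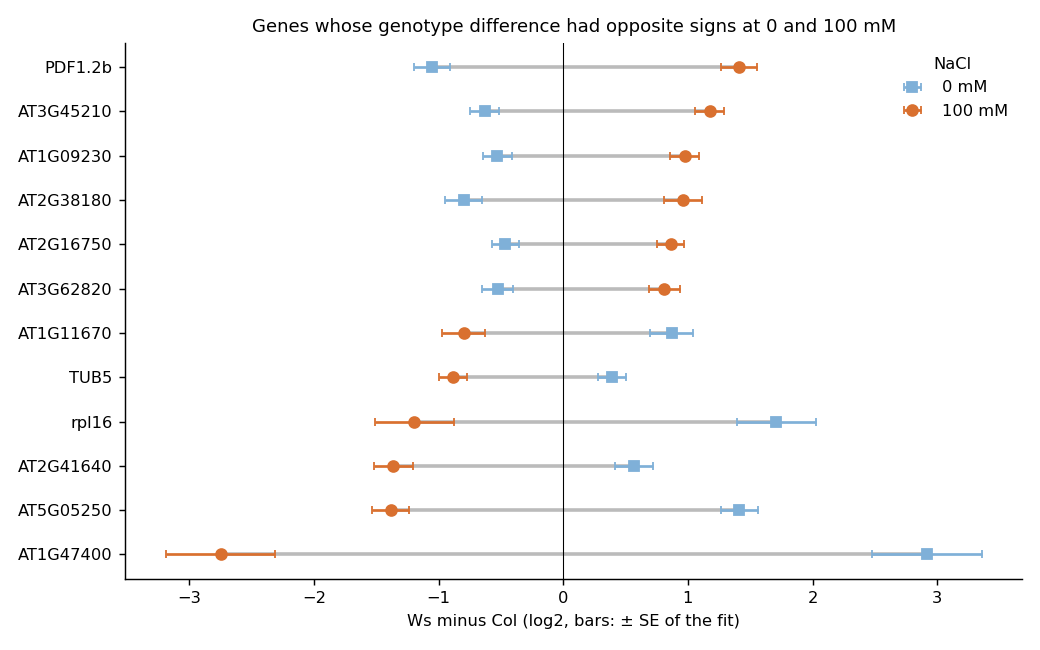
Ws minus Col (horizontal axis, log2) at 0 mM (blue squares) and 100 mM NaCl (orange circles) for the 12 named genes called at both salt levels with opposite signs, with bars of 1 SE of the fit on either side. AT1G47400 spans the widest range, from 2.92 without salt to -2.75 with it.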

How the data were processed

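Leaf RNA of 3 genotypes at 0 and 100 mM NaCl was measured on 12 arrays, 2 per group. The deposited values are log2 signals, which the authors made with GCOS and RMA per the submitters' processing notes, with no version given. They were used without further normalization, and the precision is limited by the number of arrays. Of 22810 probe sets, 64 controls were left out. Of the 22746 tested, 13513 had 1 listed gene, 503 several and 8730 none, 13436 matched a RefSeq locus, and 1551 had a gene symbol. Genes are named only from probe sets with 1 gene.

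A linear model with a mean for each of the 6 groups was fitted to every probe set by limma 3.58.1 (R 4.3.3). Variances were moderated (6 residual and 3.45 prior degrees of freedom), and two-sided p-values were adjusted by Benjamini-Hochberg. The fit was tested on simulated data with independent arrays and the same spread in all groups. That test therefore does not cover the wider spread of the salted groups or the shared shift of their replicate 1 arrays. Figures used matplotlib 3.10.9 in Python 3.11.15. Alternatives were a replicate block, a low-signal filter, quantile renormalization, an intensity trend, fits of fewer groups, a plastid covariate and leaving out arrays. Where 1 array of a group was left, its spread was taken from the remaining groups.

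Named genes were those with 1 gene whose salted arrays did not overlap: the 20 largest calls in each direction, 6 per direction also called by the interaction, 6 per direction with the opposite call at 0 mM, and up to 4 called members of each list with at least 3 measured. Called genes with a symbol and a difference of 2-fold or more were added after their values were seen. The members and lists were chosen with earlier results of these data known. A chitinase and a formate dehydrogenase that share symbols with a flavonoid gene and an epidermal gene were taken out of those lists. The submitters list the Col arrays under a further series too. Results of 1 gene family are not reported here.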

Additional observations from a re-analysis of the deposited data

Results flagged for a closer look

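The genotype difference itself changed between salt levels in 47 of the genes that the text names or that belong to its lists, by limma's interaction test at an adjusted p under 0.05. The values below are Ws minus Col at 100 mM less Ws minus Col at 0 mM, in log2 units, and their causes were not tested. Genes named by the rule for interactions or for opposite signs had to pass or were chosen for such a change. Of the 47, 43 were refitted with single arrays left out, all but EXO, BCAT4, XERICO and UGT78D2, and 14 of them lost this call in at least 1 such fit.

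Among stress and defence genes the difference became more negative with salt for COR27 (-2.93), PUB23 (-2.41), WRKY22 (-2.27), LTI30 (-2.09), DI21 (-1.85), CML38 (-1.49), PYE (-1.39) and AR781 (-0.99). It became more positive for PDF1.2 (2.57), PDF1.2b (2.46), JMT (1.35), XERICO (1.07) and Hsp70-2 (0.83). The change of Hsp70-2 did not pass without 5 of the 8 arrays in turn (adjusted p = 0.056 to 0.11), that of JMT without 3 (0.064 to 0.085), that of CML38 without 2 (0.054 and 0.055), and those of LTI30 and PYE without 5 each (0.051 to 0.13).

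Among genes of the wall, the cytoskeleton, chromatin and the plastid, the change was -2.90 for rpl16, -1.93 for HTB2, -1.55 for EXO (AT4G08950), -1.28 for TUB5 and 2.09 for XTH33. EXO, named for a role in growth with brassinosteroid, was not called at 100 mM and was higher in unsalted Ws by 1.19. HAT2 gave 1.08. The change of HTB2 failed without 7 of the 8 arrays in turn (adjusted p = 0.051 to 0.15), and those of XTH33 and HAT2 without 5 each (0.070 to 0.13).

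Among enzymes and transporters of metabolism the change was -1.58 for UGT76E12, 0.83 for APS4, 0.96 for BCAT4 (AT3G19710), an aminotransferase of glucosinolate synthesis, 1.11 for the vacuolar protease BETA-VPE (AT1G62710), 1.3 for UGT78D2 (AT5G17050), a flavonoid glucosyltransferase, 1.4 for ARD4, 1.60 for BGLU47 (AT4G21760) and 1.75 for UF3GT. For UF3GT, UGT78D2, APS4, BETA-VPE, BCAT4 and BGLU47 the positive value is a deficit in unsalted Ws that was smaller with salt. The change of ARD4 failed without 6 of the 8 arrays in turn (adjusted p = 0.073 to 0.17), that of APS4 without 5 (0.058 to 0.084), that of BGLU47 without 4 (0.055 to 0.069) and that of UF3GT without 2 (0.053 and 0.056).

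Genes known here only by locus, and ZCF37 (AT1G59590, -1.11), made up the rest. The change was -5.67 for AT1G47400, -4.14 for AT1G07050, -3.92 for AT4G27654, -2.80 for AT5G05250, -2.66 for AT2G40010, -1.93 for AT2G41640, -1.67 for AT1G11670 and -1.38 for AT4G16146. It was 1.26 for AT1G72030, 1.33 for AT2G16750, 1.34 for AT3G62820, 1.5 for AT1G09230, 1.63 for AT1G66100, 1.65 for AT4G19430, 1.76 for AT1G76960, 1.76 for AT2G38180, 1.80 for AT3G45210, 1.85 for AT2G32160 and 1.85 for AT5G18840. For AT1G66100, AT1G76960 and AT2G32160 Ws was at or under the lower quartile at both salt levels, so the change in the difference lies in Col. The change of ZCF37 failed without 6 of the 8 arrays in turn (adjusted p = 0.060 to 0.17), and that of AT5G18840 without 4 (0.053 to 0.082).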

How the results depend on the processing

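No called probe set named in the text changed sign in its difference at 100 mM under the settings tried. Some list medians near 0 did. With single arrays left out, the lowest or highest value was 0.59 for plastid-encoded genes (main -0.19), 0.16 for dehydration genes, 0.17 for WRKY, 0.07 for calmodulin-like genes, -0.15 for jasmonate and ethylene, -0.07 for wall expansion, -0.07 for UGT and -0.02 for sodium and potassium transport and for reference genes, and with the dimmest probe sets filtered out bZIP gave -0.20 and BGLU -0.24. With the plastid covariate the plastid-encoded median was 0.06. The count of calls at 100 mM was 282 with only the 4 salted arrays, 1815 with the 8 arrays of Ws and Col, 5502 with a plastid covariate and 2189 to 3685 with 1 array left out. The share of calls higher in Ws moved from 52.2% to 25.2% with only the 4 salted arrays. Without salt the count was 2241 with the 8 arrays, 6419 with the covariate and 1643 to 2089 with 1 array left out. The interaction gave 265 with the 8 arrays, 2525 without both replicate 1 arrays, 4155 with the covariate and 386 to 2169 with 1 array left out. The share of calls found at both salt levels stayed between 30.0% and 51.9%. Replicate numbers carry no stated pairing. Deviations of same-numbered salted Ws and Col arrays correlated at 0.697 and those of the unsalted arrays at -0.140. With a replicate block 2916 probe sets were called at 100 mM, 3585 without salt and 1041 by the interaction, and with a replicate block on only the 4 salted arrays 2420, 1115 higher and 1305 lower. Of 138 named probe sets 41 kept their call in every setting and 97 lost it in the fit of the 4 salted arrays, 61 of them only in fits of those 4 arrays. The fit of the 4 salted arrays has fewer samples to estimate spread, and a replicate block on these arrays moved its count from 282 to 2420. The causes of these changes were not tested.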

Other observations

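A few called genes with a symbol at 2-fold or more have not been described. In salted Ws, MSRB6 (AT4G04840), a methionine sulfoxide reductase, read 7.73 and 7.21 against 8.65 and 8.71 in salted Col, a difference of -1.20 (SE 0.16, adjusted p = 0.00109), and it was lower without salt by a difference of -1.91. ARPN (AT2G02850), a plantacyanin, read 8.1 and 6.47 against 9.81 and 8.83, a difference of -2.03 (SE 0.46, adjusted p = 0.0173) that did not pass without replicate 1 of Col (adjusted p = 0.099). GLR2.7 (AT2G29120), a glutamate receptor-like channel, was higher in Ws at 6.70 and 7.66 against 5.49 and 6.23, a difference of 1.32 (SE 0.30, adjusted p = 0.0178), which ended without replicate 1 of Col (0.10) or replicate 2 of Ws (0.058). HYH (AT3G17609), a bZIP relative of the light regulator HY5, read 6.07 and 6.61 against 5.46 and 4.90 and differed by 1.16 with salt and 1.22 without it, though its call with salt ended without replicate 2 of Col (0.088) or of Ws (0.070). GT2 (AT1G76890), a trihelix transcription factor, differed by 1.00 (SE 0.12, adjusted p = 0.000552) with salt and 0.73 without it, and ATNTH1 (AT2G31450), a DNA repair glycosylase, by 1.07 and 1.24.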
